A study of Physcomitrium patens with 8 samples.

Results

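The question addressed here is what drying did to the transcripts of wild-type (WT) moss that applied ABA did not. The comparison sets 1 library of dehydrated WT tissue directly against 1 library of ABA-treated WT tissue, with no control library in it. These are 2 of the 8 libraries of the series. Genes were kept when their mean over the 8 libraries was at least 20 normalised reads, which left 19821 of 26610 genes. This filter used no difference between the 2 conditions, but both libraries enter the mean, so a high value in 1 of them can carry a gene through. The genes named below were picked by differences between conditions.

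All libraries came from 6-day subcultured chloronemata, the green filaments of young moss cultures, of the Gransden strain. For WT dehydration, tissue lay in open dishes in a desiccator above saturated NaCl until it had lost 70% of its fresh weight. For WT ABA, tissue on cellophane stood for 1 h on paper soaked in medium with 1e-05 M ABA. The other WT libraries were mannitol (10% w/v, 1 h, also on soaked paper) and an untreated control, and the same 4 conditions were sequenced for the line labelled PpanrKO (KO), in a study that by its title is about a regulator of the ABA response. The labels give no duration for the drying and describe no mock transfer, so drying itself cannot be told apart from its duration and from the difference in handling.

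Abscisic acid (ABA) is the hormone by which land plants signal water shortage. Bound to its receptors, it holds back a group of protein phosphatases, which frees kinases that switch on protective genes. A drying cell also loses volume and turgor and concentrates its contents, so drying can reach genes by routes other than the hormone. In mosses, applied ABA is known to prepare the filaments to survive drying. The deposited gene models pair the IDs with no names or functions. None of them (0 IDs) was found in the reference gene table at hand, which is of another assembly, so gene lists for protective proteins, ABA signalling or photosynthesis were not applied, neither the tissue nor the targeted gene was checked by its transcripts, no sequence is shown and genes appear by ID and position in build V3.0.

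Each library was made from the pooled RNA of 3 biological replicates, and there is 1 library per group, so a difference between 2 libraries has no replicate check and no test. Totals were 22516957 reads in WT dehydration and 29960046 in WT ABA, within a range of 22516957 to 38767634 over the series. The 100 most abundant genes took 35.1% of the reads in WT dehydration and 41.3% in WT ABA. Intervals in brackets are exact 95% limits of a ratio of normalised reads and cover counting error only, since PCR copies of 1 molecule can each give a read.

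Gene levels after drying and after ABA were correlated. Across the 19821 genes, which are not independent replicates, the levels, as log2(normalised reads + 10), had a Pearson's r of 0.95 and a Spearman's rho of 0.95 between the libraries, as a description. The same pair in KO also gave 0.95 and 0.95. A wide range of levels between genes raises such values, and no other pair of treatments was compared, so they do not measure how alike drying and ABA were. The difference, WT dehydration minus WT ABA, had a median of -0.42 log2 units and quartiles of -0.80 and -0.08, so most genes lay somewhat lower after drying at the deposited scale. By this scale 83 genes (0.419% of those kept) were at least 4-fold higher after dehydration and 590 (2.98%) were at least 4-fold lower. At 2-fold, 464 genes (2.34%) were higher and 3394 (17.1%) were lower.

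How far this tilt goes depended on the scaling. The deposited values sum to 27706234 in WT dehydration and 48399887 in WT ABA. The WT ABA sum was the largest of the 8 libraries, with the next at 36619983 in KO ABA. With median-of-ratios scaling the median difference was -0.03, and 147 genes (0.742%) were 4-fold higher and 364 (1.84%) 4-fold lower. With scaling to total reads the median was 0.32, and 237 genes (1.2%) were higher and 190 (0.959%) lower. Counted from the median of all genes at the deposited scale, 150 were 4-fold higher and 317 4-fold lower. With scaling to total reads, the same count from the median gave 133 higher and 322 lower. Lower genes outnumbered higher ones in each of these counts except the one with scaling to total reads that was not taken from the median. Under all 3 scalings, 83 genes (0.419%) were 4-fold higher and 190 (0.959%) 4-fold lower, the smallest list of each direction.

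**Figure D1:**
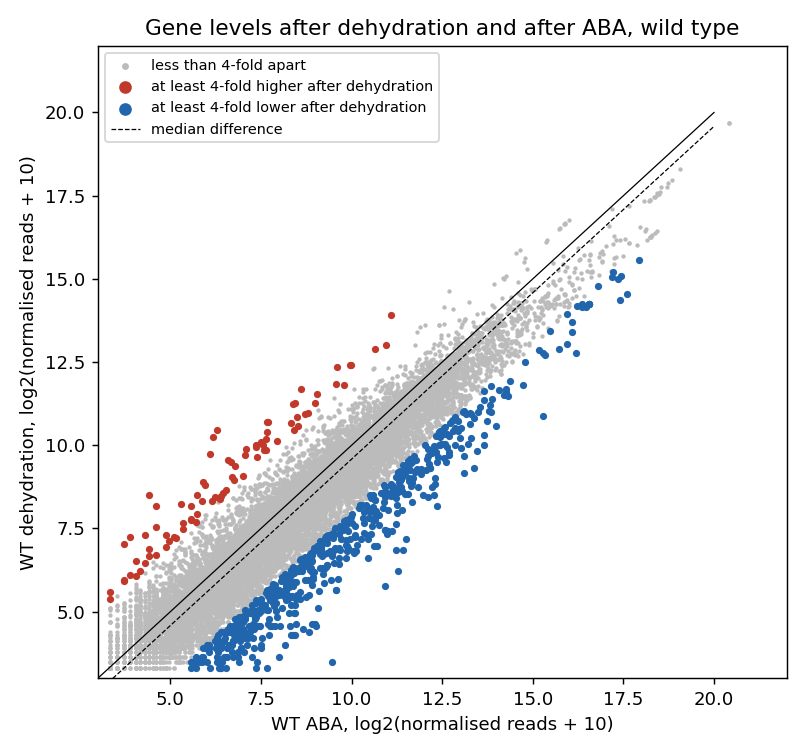
Level of each of 19821 genes in WT dehydration (vertical axis) and WT ABA (horizontal axis), both as log2(normalised reads + 10), 1 point per gene and 1 library per axis. The solid line marks equal levels and the dashed line the median difference of -0.42; 83 genes lie at least 4-fold above equality and 590 at least 4-fold below it.

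The genes furthest apart show the range of what was measured. Phpat.001G160100 lies on the minus strand of chromosome 1, from 27898651 to 27899441. It had 1126 reads in WT dehydration, 42 in WT ABA, 127 in WT mannitol and 236 in the WT control. It was 20.4-fold higher after drying than after ABA (15.0 to 28.5), with ABA and mannitol both under the control and drying above it. In KO the same gene had 74 reads after dehydration, 188 after ABA, 319 with mannitol and 105 in the control. Its KO difference of -1.24 log2 units had the opposite sign, a contrast between single libraries that was not tested.

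Phpat.027G009300 (1324996 to 1329780 on chromosome 27, minus strand) had 285 reads in WT dehydration, 7 in WT ABA, 24 in WT mannitol and 12301 in the WT control. It was 31.0-fold higher after drying than after ABA (14.9 to 77.8), yet far below the control in all 3 treatments. In KO it had 4, 4, 3 and 15628 reads after dehydration, ABA, mannitol and in the control, so that no gap between drying and ABA was detectable in KO at this depth.

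At the other end, Phpat.021G069600 (12755760 to 12756335 on chromosome 21, minus strand) had 1 read in WT dehydration, 427 in WT ABA, 86 in WT mannitol and 1 in the WT control. It was 561-fold lower after drying than after ABA (100.1 to 22194) and did not leave the control level with drying. In KO it had 2 reads after dehydration, 57 after ABA, 73 with mannitol and 2 in the control, 28.8-fold lower after drying (7.61 to 243). ABA and mannitol thus stood above the control in both genotypes, and drying in neither.

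Phpat.021G058000 (10255984 to 10257741 on chromosome 21, plus strand) had 36 reads in WT dehydration, 1191 in WT ABA, 1080 in WT mannitol and 293 in the WT control. Drying and ABA lay on opposite sides of the control, and drying was 43.4-fold lower than ABA (31.2 to 62.3). KO had 64 reads after dehydration, 419 after ABA, 595 with mannitol and 399 in the control, and was 6.61-fold lower after drying (5.07 to 8.74).

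A direct difference between drying and ABA can arise on either side, so each gene at least 4-fold apart was placed against the WT control, with 2-fold as the limit. Picking on the difference itself favours low drying and high ABA values among the lower genes, and high drying and low ABA values among the higher ones. No share over all genes was computed for these places. In 359 of the 590 lower genes (60.8%) the dehydration value lay below the control, a place that the picking favours. Dehydration lay at least 2-fold below the control and ABA within 2-fold of it in 257 of them (43.6%). In 121 genes (20.5%) both treatments lay above the control, ABA further than drying, and in 110 (18.6%) ABA alone lay above it. In 55 genes drying lay below and ABA above the control, and in 47 both lay below.

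Among the 83 higher genes, 28 (33.7%) lay within 2-fold of the control after drying and below it after ABA, and 22 (26.5%) lay above it after drying and within 2-fold after ABA. In 20 (24.1%) both lay below the control and in 9 on opposite sides of it. The 4 genes above the control in both, named here after their values were seen, were Phpat.002G077000, Phpat.007G088100, Phpat.015G077300 and Phpat.024G053800. ABA lay below the control in 57 of the 83 genes (68.7%), a place that the picking favours. The class sizes follow the scaling, and with median-of-ratios scaling the higher genes above the control after drying alone numbered 52 and those below it after ABA alone 46, while scaling to total reads gave 49 and 111.

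**Figure D2:**
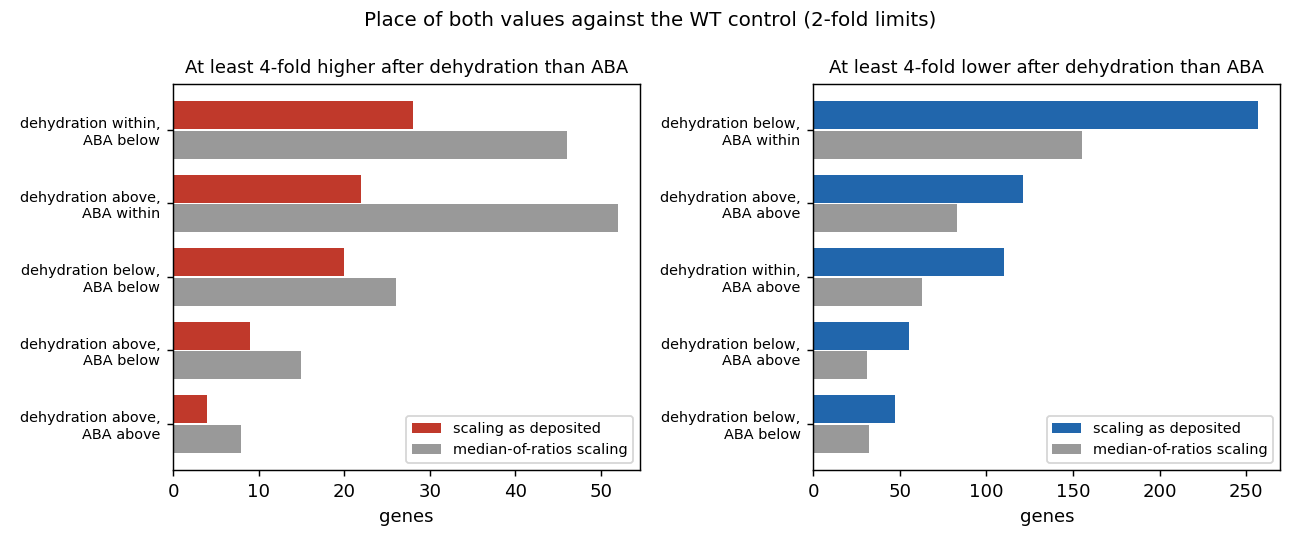
Number of genes (horizontal axis) by the place of the WT dehydration and WT ABA values against the WT control, as above, within or below 2-fold, for genes at least 4-fold higher (left) or lower (right) after dehydration than after ABA; coloured bars use the deposited scale and grey bars median-of-ratios scaling. The most frequent class of lower genes is dehydration below and ABA within, with 257 genes at the deposited scale and 155 with median-of-ratios scaling.

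One gene of each frequent class, the one furthest apart, is given as an example, and an extreme one. Phpat.026G025900 (3772319 to 3775495 on chromosome 26, minus strand) belongs to the lower genes with drying below the control and ABA near it, and to a run of 5 neighbouring lower genes. It had 11 reads in WT dehydration, 312 in WT ABA, 12965 in WT mannitol and 873 in the WT control, and was 37.2-fold lower after drying than after ABA (20.5 to 75.4). Mannitol, which draws water from cells by osmosis, lay above the control here, by 3.53 log2 units. In the class of 257 the median for mannitol was 0.25, against 0.47 for all genes, with 53 genes (20.6%) at least 2-fold above the control and 56 (21.8%) below it, against 21.2% and 6.68% of all genes. The class was picked against the same WT control library, which favours mannitol values below the control.

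Phpat.020G077900 (14225493 to 14227409 on chromosome 20, minus strand) is one of the genes above the control in both treatments. It had 52 reads in WT dehydration, 1520 in WT ABA, 336 in WT mannitol and 5 in the WT control. Drying reached a level 2.32 log2 units above the control and ABA one of 7.38 log2 units, so drying was 38.4-fold lower than ABA (29.1 to 51.6).

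Phpat.018G010400 (2599494 to 2603068 on chromosome 18, plus strand) is one of the genes below the control in both. It had 17 reads in WT dehydration, 207 in WT ABA, 1331 in WT mannitol and 3605 in the WT control, and was 16.0-fold lower after drying than after ABA (9.75 to 28.0). In KO it had 743 reads after dehydration and 1022 after ABA, a difference of -0.47 log2 units that lies at the median of all genes there.

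Among the higher genes, Phpat.010G081200 (14565402 to 14566464 on chromosome 10, minus strand) is one of those above the control after drying alone. It had 114 reads in WT dehydration, 3 in WT ABA, 6 in WT mannitol and 17 in the WT control, a ratio of 28.9 (9.66 to 142), and at most 5 reads in any KO library. Phpat.014G083200 (13770225 to 13775752 on chromosome 14, plus strand) is one of those below it after ABA alone. It had 227 reads in WT dehydration, 9 in WT ABA, 69 in WT mannitol and 248 in the WT control, and was 19.2-fold higher after drying than after ABA (9.94 to 42.6).

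**Figure D3:**
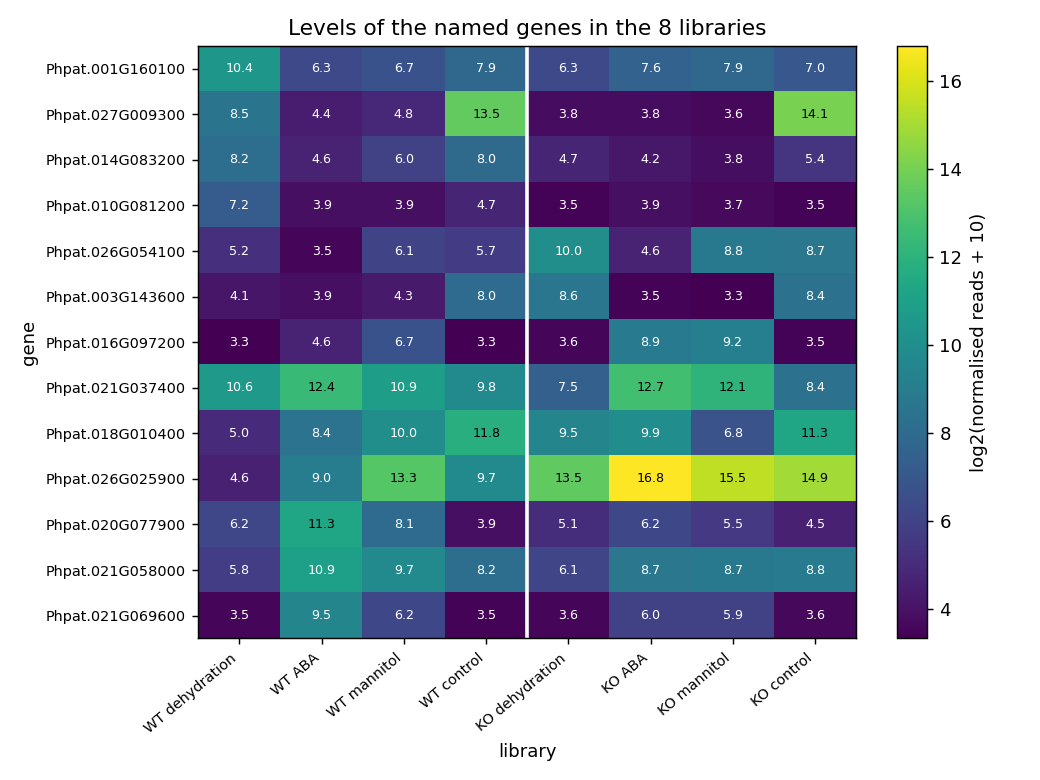
Levels of the 13 named genes in the 8 libraries as log2(normalised reads + 10), ordered from the highest to the lowest WT difference, with WT libraries left of the white line and KO libraries right of it. Phpat.001G160100, the top row, is highest in WT dehydration, and Phpat.021G069600, the bottom row, is at the control level in WT dehydration and highest in WT ABA.

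The KO line offers the same comparison in libraries that share nothing with the WT pair. In KO, 87 genes (0.439%) were 4-fold higher and 368 (1.86%) 4-fold lower after dehydration than after ABA, around a median of -0.48 log2 units. At 2-fold, 433 (2.18%) were higher and 3441 (17.4%) lower. With median-of-ratios scaling 169 (0.853%) were 4-fold higher and 159 (0.802%) lower, so the excess of lower genes in KO was not present at that scale. Over all genes, the WT and KO differences correlated with r = 0.23 and rho = 0.21 (n = 19821 genes), a description only, since each difference rests on a pair of single libraries.

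The 590 genes lower in WT lay lower in KO than genes at large. Their median in KO was -0.88 against -0.48 for all genes, and 276 of the 590 (46.8%) were at least 2-fold lower there, where 17.4% of all genes were. With median-of-ratios scaling, 127 of 364 (34.9%) were at least 2-fold lower in KO, against 5.86% of all genes. Those 4-fold higher in WT gave a KO median of -0.03, and 15 of the 83 (18.1%) were at least 2-fold higher there against 2.18% of all genes, while 11 (13.3%) were 2-fold lower against 17.4% of all genes. With median-of-ratios scaling 36 of 147 (24.5%) were 2-fold higher in KO, against 5.59% of all genes.

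Read the other way, genes picked in KO and looked up in WT gave these values. The 368 genes lower in KO had a WT median of -1.33, and 222 (60.3%) were at least 2-fold lower in WT, where 17.1% of all genes were. The 87 genes higher in KO had a WT median of 0.07, with 12 (13.8%) at least 2-fold higher in WT against 2.34% of all genes, and 17 (19.5%) 2-fold lower, a share near the 17.1% of all genes. With median-of-ratios scaling 169 genes were picked, of which 54 (32.0%) were 2-fold higher in WT and 27 (16.0%) 2-fold lower, against 4.95% and 9.07% of all genes.

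The KO values are also given by class. Of the 257 genes with drying below the WT control and ABA near it, 150 (58.4%) were at least 2-fold lower after drying than after ABA in KO. Of the 121 genes above the control in both, 24 (19.8%) were, a share near the 17.4% of all genes. The KO medians were -1.28 and -0.13. With median-of-ratios scaling the shares were 52.3% and 7.23%, against 5.86% of all genes, and with scaling to total reads 63.5% and 4.76%. Genes above the control after ABA alone had a share of 45.5%, 27.0% with median-of-ratios scaling and 17.9% (5 of 28) with scaling to total reads, against 5.9% of all genes at that scale. The difference between the classes has no test, since KO has 1 library per group.

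**Figure D4:**
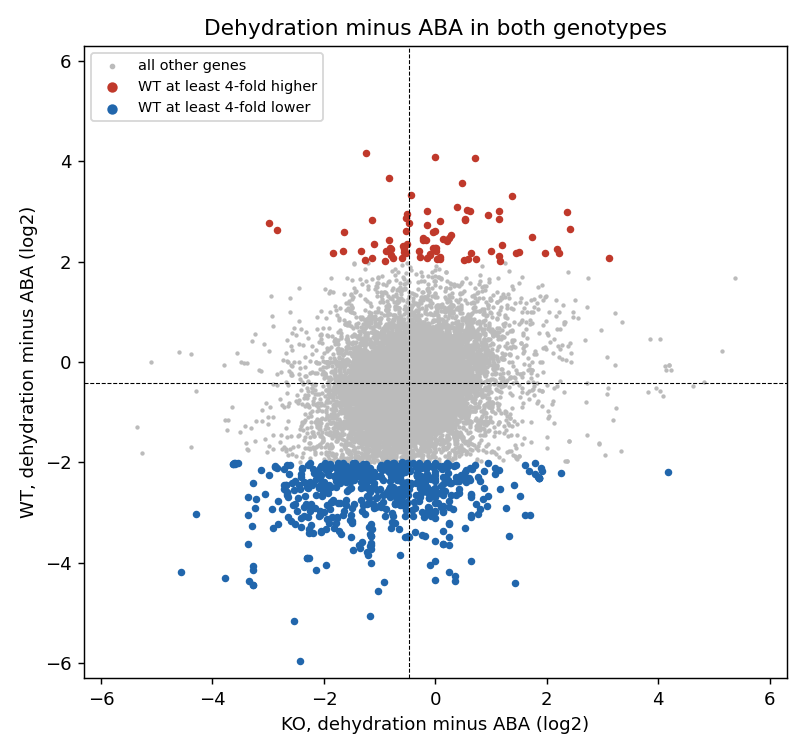
Dehydration minus ABA in WT (vertical axis) and in KO (horizontal axis), in log2 units, for 19821 genes; colours mark genes at least 4-fold higher or lower in WT, and dashed lines mark the medians of -0.42 (WT) and -0.48 (KO). The 590 genes lower in WT extend to the left, with 276 of them at least 2-fold lower in KO, and in KO 15 of the 83 higher ones lie 2-fold or more above 0 and 11 lie 2-fold or more below it.

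Genes at least 4-fold apart in the same direction in both genotypes numbered 5 higher (6.02% of the WT list and 5.75% of the KO list) and 114 lower (19.3% and 31.0%). Of all genes, 0.439% were 4-fold higher and 1.86% 4-fold lower in KO, and 0.419% and 2.98% in WT. With median-of-ratios scaling 10 were higher and 43 lower in both, and with scaling to total reads 16 and 29. The 5 higher genes, named after their values were seen, were Phpat.017G025500, Phpat.008G080900, Phpat.017G048700, Phpat.012G053700 and Phpat.003G027500. Phpat.008G080900 (14887609 to 14889277 on chromosome 8, plus strand) had 607 reads in WT dehydration, 53 in WT ABA, 194 in WT mannitol and 44 in the WT control. In KO it had 565 reads after dehydration, 100 after ABA, 93 with mannitol and 71 in the control. Of the 5 it is the gene that stood well above the WT control after drying in WT, by 3.85 log2 units. Phpat.017G025500 (5681052 to 5683325 on chromosome 17, plus strand) had 823 reads in WT dehydration, 95 in WT ABA, 194 in WT mannitol and 940 in the WT control. Its KO reads were 623 after dehydration, 107 after ABA, 140 with mannitol and 745 in the control, so the drying value was near the control and those of ABA and mannitol below it in both genotypes. The other 3 lay below the WT control after both drying and ABA, with ABA lower. Not all of them lay below the control after drying in KO. There, Phpat.017G048700 had 13067 reads after dehydration and 5036 in the control, Phpat.012G053700 had 761 and 505, and Phpat.003G027500 had 6545 and 8924.

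Of the genes lower in both, Phpat.020G086400 (15254125 to 15256726 on chromosome 20, plus strand) had 227 reads in WT dehydration, 3241 in WT ABA, 1904 in WT mannitol and 138 in the WT control. KO had 365, 8751, 4589 and 232 reads in the same order, and the log2 differences were -4.18 in WT and -4.56 in KO. Its ABA and mannitol levels were far above the control in both genotypes and its dehydration level was about 1 log2 unit above it in WT (1.02). Phpat.019G056900 (10969419 to 10972952 on chromosome 19, plus strand) had 111 reads in WT dehydration, 1793 in WT ABA, 912 in WT mannitol and 764 in the WT control, with 160, 2307, 1103 and 1409 in KO. Here drying lay below the control and ABA above it in WT. Both genes were singled out after their values were seen, as those with the largest smaller difference.

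The genes furthest apart in KO are given with their WT reads. Phpat.026G054100 (9417653 to 9419931 on chromosome 26, plus strand) had 1060 reads in KO dehydration and 15 in KO ABA, 70.0-fold higher after drying (42.3 to 126), and 22 and 1 in WT. Phpat.003G143600 (24441377 to 24444252 on chromosome 3, plus strand) had 401 reads in KO dehydration, 1 in KO ABA and 299 in the KO control, against 6, 3 and 259 in WT. After drying this gene was near the control in KO and far below it in WT, and after ABA it was low in both.

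Phpat.016G097200 (16148924 to 16152439 on chromosome 16, minus strand) had 2 reads in KO dehydration, 505 in KO ABA and 798 in KO mannitol, 255-fold lower after drying than after ABA (70.2 to 2110), and 0, 9 and 123 in WT. Phpat.021G037400 (6814434 to 6816827 on chromosome 21, plus strand) had 179 reads in KO dehydration and 7241 in KO ABA, 40.8-fold lower (35.2 to 47.6), and in WT 1274 and 3431, 3.54-fold lower (3.32 to 3.77). This last gene overlaps a gene on the other strand, and the sources used here do not say whether counting used strand.

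With both genotypes as the observations of each treatment, a test was possible for a difference shared by WT and KO. The limma fit of all 8 libraries, with treatment and genotype as terms and 3 residual degrees of freedom, called 0 genes (0% of 19821) at a Benjamini-Hochberg adjusted p under 0.05 for dehydration minus ABA. The smallest limma adjusted p was 0.092, and 105 genes were higher and 2723 lower at an unadjusted p under 0.05. On recovered whole reads, edgeR's quasi-likelihood test also called 0 genes, with 106 higher and 2690 lower unadjusted. The tilt of these unadjusted counts followed the scaling. With median-of-ratios scaling they were 532 higher and 710 lower for limma, and 518 and 722 for edgeR. DESeq2 on the same reads called 23 higher (0.116%) and 559 lower (2.82%), and with median-of-ratios scaling 97 higher (0.489%) and 174 lower (0.878%). The result of the shared test thus rests on the tool. All 23 and all 174 were called under both scalings. Of these, 15 of 23 and 173 of 174 were at least 2-fold apart in that direction in both WT and KO. The calls used the same libraries, so the picking favours this and it is no separate support. It was counted at the deposited scale, where 2.34% of all genes were 2-fold higher and 17.1% lower in WT. In KO these were 2.18% and 17.4%. The 13 genes named by the fixed rule had limma adjusted p values between 0.24 and 0.55.

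Mannitol bears on the comparison from outside, because genes picked by WT mannitol against the WT control share no library with WT dehydration minus WT ABA. The 881 genes 4-fold higher with mannitol had a median difference of -0.80, which is -0.38 relative to all genes. Of them, 110 (12.5%) were 4-fold lower after drying than after ABA against 2.98% of all genes, while the share 4-fold higher, 0.568%, was near the 0.419% of all genes. Their median relative to all genes was -0.57 with median-of-ratios scaling and -0.40 with scaling to total reads.

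The 481 genes 4-fold lower with mannitol were spread to both sides. Their median was -0.62 and their quartiles -1.20 and 0.29. Of them, 21 (4.37%) were 4-fold higher after drying than after ABA and 34 (7.07%) 4-fold lower, against 0.419% and 2.98% of all genes. These 21 genes are 25.3% of the 83 higher genes, while 481 of all 19821 genes kept were 4-fold lower with mannitol. Among the 20 higher genes below the control after both drying and ABA, mannitol lay at least 2-fold below it in 17 (85.0%), against 6.68% of all genes. Among the 121 lower genes above the control in both, mannitol lay at least 2-fold above it in 99 (81.8%), against 21.2% of all genes. These class shares use the same WT control for all treatments. Picking the classes against it favours mannitol on the same side, so the shares of all genes are not a like background.

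Picks from the KO line gave another pattern. Genes 4-fold higher in KO mannitol than in the KO control (291) had a WT median of -0.16, above that of all genes at the deposited scale by 0.26 log2 units, by 0.04 with median-of-ratios scaling and by 0.002 with scaling to total reads. Genes 4-fold lower there (592) had -0.77. Genes 4-fold lower in the KO control than in the WT control (167) had a median of -1.06. Of these, 88 (52.7%) were 2-fold lower after drying than after ABA against 17.1% of all genes, and 10 (5.99%) were 4-fold higher against 0.419%. With scaling to total reads that pick held 281 genes with a median of -0.081, 59 (21.0%) of them 2-fold higher and 56 (19.9%) 2-fold lower, against 10.2% and 4.66% of all genes. The 179 genes higher in the KO control had a median of -0.41 at the deposited scale, with 24 (13.4%) 4-fold lower after drying against 2.98% of all genes. Relative to all genes their median was -0.14 with median-of-ratios scaling and -0.34 with scaling to total reads.

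**Figure D5:**
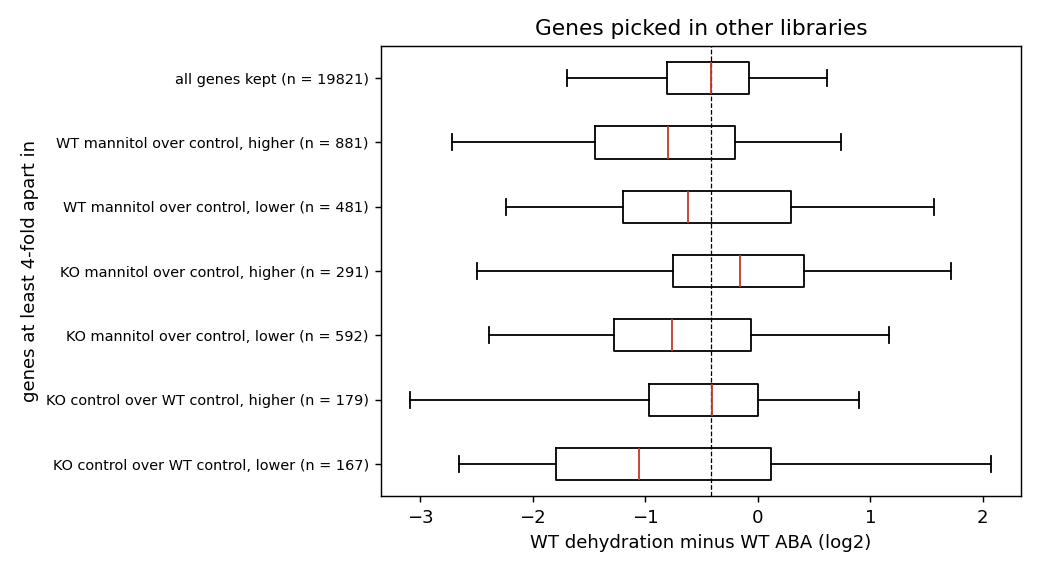
WT dehydration minus WT ABA (horizontal axis, log2) for genes picked in libraries outside the comparison; boxes show the quartiles with the median in red, whiskers the 5th and 95th percentiles, and the dashed line the median of all genes, -0.42. Genes raised by WT mannitol centre on -0.80, and genes lowered by it spread from a lower quartile of -1.20 to an upper one of 0.29.

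Genes far apart between drying and ABA had shorter models. The median span of the gene model, introns included, was 2111 bp for the 83 higher genes and 2383 bp for the 590 lower ones, against 3089 bp for all genes kept. Of the 3965 genes with the shortest spans (90 to 1806 bp), 0.681% were 4-fold higher and 4.72% 4-fold lower, and of the 3964 with the longest (4915 to 33540 bp), 0.177% and 1.59%. The median difference was -0.40 in both of these groups, so the spread and not the centre moved with span. The median number of reads over WT dehydration and WT ABA together moved with it too (139 for the shortest genes and 661 for the longest), and its part in the result was not tested.

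With genes ranked by their WT control level into 10 groups, the share at least 2-fold lower after drying was 22.8% in group 1 (the lowest), 12.2% in group 6 and 25.0% in group 10, where the median was -0.51. With median-of-ratios scaling the shares were 16.2%, 4.49% and 11.4%, and with scaling to total reads 9.38%, 2.17% and 5.7%. Groups 1 and 10 lay above group 6 at each scale, but which of these 2 was higher depended on the scaling. An older V1.6 model was present for 80.7% of the higher and 75.4% of the lower genes, against 77.9% of all.

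Lower genes lay next to each other on the chromosomes. Of 452 lower genes followed by a kept gene, 84 (18.6%) were followed by another lower gene, against 2.98% of all genes, and 7.46% of 67 higher genes by another higher one, against 0.419%. Of the 84 pairs, 12 had reads within 5% or 3 reads of each other in every library, as copies that share reads would. There were 11 runs of at least 3 kept neighbours, and all were of lower genes. Chromosome 26 had the highest share of lower genes (6.87%, 29 of 422), and 13 of these 29 genes lay in 2 of the runs.

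The runs differed in what KO did, which is described here after their values were seen. The 5 genes from Phpat.026G025700 to Phpat.026G026100 (chromosome 26, 3672772 to 3843939) had 2 to 11 reads in WT dehydration and 152 to 312 in WT ABA, with log2 differences of -4.45 to -4.06 in WT and -3.34 to -3.26 in KO. The 5 genes from Phpat.016G058400 to Phpat.016G058800 (chromosome 16, 9168353 to 9233649) had 14956 to 15771 reads in WT dehydration and 55983 to 59400 in WT ABA, -2.31 to -2.30 in WT, and 1.84 to 1.86 in KO, the opposite sign. Within each of these 2 runs the differences were close to equal, and copies that share reads would look the same as genes that differ together, so each may be 1 signal counted several times. The same limit holds for other even runs. The genes from Phpat.015G004200 to Phpat.015G004400 had -2.455 to -2.445 in WT and -2.716 to -2.685 in KO. Those from Phpat.023G004700 to Phpat.023G004900 had -2.025 to -2.013 in WT and -3.623 to -3.603 in KO. Some runs were less even, as in the 8 genes from Phpat.026G021800 to Phpat.026G022500, with -3.06 to -2.22 in WT and -2.62 to 0.77 in KO.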

How the data were processed

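The authors deposited 1 normalised abundance signal per gene and library for 26610 genes, with Phytozome v10 gene models of build V3.0. Per the submitters' processing notes, the tools included TopHat2, Trimmomatic, bedtools, FastQC and SAMtools, without versions. The aligner settings, the use of strand and the scaling method are not given in the sources used here. RNA of 3 biological replicates was pooled per library, per the labels.

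In every library the deposited values (100% of them, to 0.01 read) come in whole steps, so the signal is a read count times 1 factor per library, 1.23 for WT dehydration and 1.62 for WT ABA, with no length correction. Dividing by the step gave back the reads. Each difference is one of log2(value + 10), and the added 10 shrinks differences of low genes. Genes averaging under 20 normalised reads over the 8 libraries (6789) were left out.

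limma 3.58.1 with a trend was the main test of dehydration minus ABA across genotypes, with edgeR 4.0.16 and DESeq2 1.42.0 (R 4.3.3) as alternatives. Its residual mixes noise with any genotype-specific treatment effect, and its p-values reflect the spread among 8 pooled libraries only. All 3 were also run on simulated counts with a fixed dispersion of 0.05 and no genotype-specific treatment effect. That setting is simpler than these data, so the run cannot decide between the tools here. Other alternatives were pseudocounts of 1 and 50, other filters, other scalings and subsets of the libraries. Genes were named by rule: the 2 highest and 2 lowest differences in WT and in KO, and the gene furthest apart in each class of at least 20 genes. The rule's genes called by limma numbered 0. The libraries, thresholds and gene choices were set with earlier results of these data known.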

Additional observations from a re-analysis of the deposited data

Results flagged for a closer look

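Phpat.001G160100, the gene with the highest WT difference, differed in opposite directions in the genotypes: dehydration minus ABA was 4.16 log2 units in WT and -1.24 in KO. The difference was not tested, since each value rests on 1 library per group. With median-of-ratios scaling the KO value was -0.77, and it kept its sign under the scalings and pseudocounts tried. The gene was named for an extreme WT value, which favours such opposites.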

How the results depend on the processing

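Counts of genes 4-fold apart followed the pseudocount and the scaling. With a pseudocount of 1, WT had 168 higher and 954 lower genes and KO 186 and 679, and with a pseudocount of 50, 42 and 313 in WT and 42 and 152 in KO. Median-of-ratios scaling gave 147 and 364 in WT and 169 and 159 in KO, and scaling to total reads, chosen after seeing the data, 237 and 190 in WT and 174 and 165 in KO. The filters left the WT and KO counts within 1.5 times, as did counting nearly equal genes once for WT, where it was run. In the test across genotypes, limma and edgeR called 0 genes under every setting run, and DESeq2 called 23 higher and 559 lower, or 97 and 174 with median-of-ratios scaling. The cause of the difference between tools was not tested.

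The median difference of genes higher with mannitol was -0.91 with a mean of at least 100, -0.59 with median-of-ratios scaling and -0.083 with scaling to total reads, and relative to all genes it was -0.57 with median-of-ratios scaling. For genes lower with mannitol it was -0.79, -0.23 and 0.040 in the same order, the last of opposite sign, and -0.36 relative to all genes with a mean of at least 100. The KO median of WT-picked higher genes turned positive, at 0.23 with median-of-ratios scaling and 0.28 with scaling to total reads, or 0.22 and 0.27 relative to all genes, against 0.45 at the deposited scale. That of lower genes was -1.12 with a pseudocount of 1, -0.61 with median-of-ratios scaling and -0.72 with scaling to total reads, or -0.61, -0.61 and -0.73 relative to all genes.

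Of the lower genes, the class with dehydration below and ABA within held 170 genes with a limit of 1.5-fold, 155 with median-of-ratios scaling and 63 with scaling to total reads. The class with ABA alone above held 63, 63 and 28, and the class with both above held 42 with scaling to total reads. No value of a named gene that was at least 2-fold changed its sign, but sizes moved with the scaling. In WT, Phpat.021G058000 had -5.16 log2 units at the deposited scale, -4.81 with median-of-ratios scaling and -4.38 with scaling to total reads. Phpat.001G160100 had 4.16, 4.59 and 4.87 in the same order. The intervals in brackets hold for the deposited scale and do not cover such shifts. No paired analysis was possible because the labels carry no replicate numbers and each group has 1 library; genotype was a term in the fits across genotypes, the one of 4 libraries included. Genes with few reads are limited by counting error.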
